A study of Mus musculus with 15 samples.

Results

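Semaphorins, ephrins and Slits are guidance ligands, and plexins, Eph receptors, Robo receptors and Unc5 receptors are the receptor families that answer to them or to related cues. The genes of these families were followed in endothelial cells sorted from mouse liver. The families were chosen with earlier results of these data known, and their members were collected by name, through the symbol of each probe's identifier. Symbols began with Sema3 to Sema7, Plxna to Plxnd, Efna, Efnb, Epha, Ephb, Unc5, Robo or Slit and a number or letter. Slitrk genes and Unc50 were left out. The rule gave 64 genes measured by 82 probes, of 21173 genes that could be named on the array. They comprised 20 semaphorins, 9 plexins, 8 ephrins, 14 Eph receptors, 4 Unc5 receptors, 4 Robo receptors and 3 Slits. The name rule also admitted Unc5cl, a relative of the Unc5 receptors, and Plxna4os1, an antisense RNA named after the plexin A4 gene.

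A total of 15 one-colour arrays, 3 for each of 5 sorted populations, were compared in a search for a marker of endothelial stem cells. EC-SP and EC-MP cells came from mice of 8 weeks, and the letters SP and MP, which the labels leave undefined, are taken to mean side and main population. A side population is the fraction that pumps a DNA-binding dye out of the cell. The other populations, from adult liver, were sorted by antibody to CD157, the product of Bst1, and to CD200, as CD157+CD200+, CD157-CD200+ and CD157-CD200- cells. All groups share the label of liver endothelial cell, and no group is described as treated. Strain, sex, genotype, sort gates, pooling of animals and whether the replicates were separate animals are not given in the sources used here. The p-values therefore reflect only how these samples vary, and part of that variation may be technical.

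Semaphorins signal through plexins, often with neuropilins as co-receptors, and act on cell adhesion and the cytoskeleton. Ephrins stay on the cell surface and signal through Eph receptor tyrosine kinases of the neighbouring cell. In blood vessels, ephrin-B2 is a classical arterial protein and its receptor EphB4 a venous one. Slits bind Robo receptors, netrins bind Unc5 receptors, and Robo4 and Unc5b are the family members best known from endothelium.

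Each value is a log2 level, the log2 of the processed spot signal minus the log2 of the 75th percentile of that array, so that 0 stands for a signal at that percentile. Between 57.2% and 69.4% of the 59305 spots of an array were well above background, no spot was saturated, and the 75th percentile lay between 157 and 298 intensity units. All 12 genes of a list of endothelial markers were well above background on all 3 arrays of every population. The sorted proteins followed their labels, since the CD157 gene Bst1 was 53.3-fold higher in CD157+CD200+ than in CD157-CD200- cells, where 2 of 3 arrays were well above background, and Cd200 was not well above background on any CD157-CD200- array. The number of arrays, 3 per population, limits the precision, and errors are SDs over these 3 arrays for mean levels and SEs from limma for differences. RNA of sorted cells in bulk cannot tell fewer cells of a type from less RNA per cell.

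Of the 64 guidance genes, 33 were well above background on all 15 arrays and 6 on none, namely Epha8, Plxna3, Sema3e, Sema4f, Unc5cl and Unc5d. Another 4, Efnb3, Epha3, Robo2 and Unc5c, were above it on some arrays but not on all 3 of any population, and these 10 genes entered no test. Testing required a probe above background throughout some population of the fit, that is on its 3 arrays. This kept 50 genes in the dye sort and 51 among the CD157 and CD200 subsets, 47 of them in both. A gene kept through its bright population alone is prone to differ, so counts among tested genes are set beside the same counts over all features. That does not fully offset the effect. Requiring every array of the fit to be well above background left 39 of 50 guidance genes and 21294 of 23969 features in the dye sort. Among the subsets it left 36 of 51 guidance genes and 20442 of 23699 features. Calls rest on limma fits that do not pair the arrays by replicate number. Arrays of the same number did vary together, so fits with the number as a block are given where they change a call. The p-values were adjusted by the Benjamini-Hochberg method across every feature of the comparison, with a threshold of 0.05. Of the 54 tested genes, 27 (50%) were called in at least 1 of the 4 comparisons between populations, against 25.0% of all 25060 features tested. Features include probes that got no gene symbol, so the share over all features is not one of named genes alone. Nor were the guidance families chosen without sight of these data.

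Promoters are shown for the 4 guidance genes that differed over 4-fold, on the processed signal, in the same direction in 3 comparisons. These were EC-SP against EC-MP, and CD157+CD200+ and CD157-CD200+ each against CD157-CD200-, where the last 2 comparisons share their CD157-CD200- arrays. With normexp background correction, which damps dim signals, the last comparison gave log2 differences of 1.71 for Sema7a, 1.98 for Sema3g and 0.49 for Slit3. All 3 are under 4-fold, and Slit3 lost its call. No Plxnc1 difference moved over 1.5-fold there. Without CD157-CD200- replicate 1, Slit3 gave 1.54 in the last comparison. Sema7a and Sema3g are semaphorins, Slit3 is a Slit and Plxnc1 is the plexin that binds Sema7a. Each sequence runs from 250 bases before to 50 bases after the gene's start, 5′ to 3′ on the gene's strand, from RefSeq on build GRCm38.p6. The regions are chr9:57939862-57940161 on the plus strand for Sema7a, chr10:94944796-94945095 on the minus strand for Plxnc1, chr11:35121206-35121505 on the plus strand for Slit3 and chr14:31217623-31217922 on the plus strand for Sema3g. Capitals mark matches, on either strand, to any of 8 short motifs linked to transcription factors. The motif written TGGGAA is read by the Notch effector RBPJ. SOX factors were searched as ACAATG. For the ETS family, which is central in endothelium, the letters were CCGGAA. The GATA motif was AGATAA. The E-box was searched as CACGTG. KLF factors, some of which respond to blood flow, were given CACCC. The SP motif common in promoters was GGGCGG. Finally, the AP-1 motif was TGANTCA, where N is any base.
Sema7a: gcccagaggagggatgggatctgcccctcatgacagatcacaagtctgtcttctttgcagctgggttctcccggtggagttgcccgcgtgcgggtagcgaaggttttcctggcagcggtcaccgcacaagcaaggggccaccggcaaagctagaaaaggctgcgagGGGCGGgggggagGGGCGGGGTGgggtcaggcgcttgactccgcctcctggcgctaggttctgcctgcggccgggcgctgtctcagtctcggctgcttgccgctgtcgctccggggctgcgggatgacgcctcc
Plxnc1: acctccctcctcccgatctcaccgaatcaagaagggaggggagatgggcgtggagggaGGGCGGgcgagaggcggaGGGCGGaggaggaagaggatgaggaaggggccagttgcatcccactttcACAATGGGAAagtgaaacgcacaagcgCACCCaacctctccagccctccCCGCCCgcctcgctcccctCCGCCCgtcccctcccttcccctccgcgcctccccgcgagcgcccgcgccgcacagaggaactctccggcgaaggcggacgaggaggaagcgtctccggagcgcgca
Slit3: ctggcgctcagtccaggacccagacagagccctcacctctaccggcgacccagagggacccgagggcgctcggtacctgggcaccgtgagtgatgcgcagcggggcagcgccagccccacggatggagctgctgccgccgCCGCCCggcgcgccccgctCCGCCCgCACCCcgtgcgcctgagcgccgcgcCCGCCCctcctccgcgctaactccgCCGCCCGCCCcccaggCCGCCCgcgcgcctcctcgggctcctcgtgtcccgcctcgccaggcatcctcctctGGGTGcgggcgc
Sema3g: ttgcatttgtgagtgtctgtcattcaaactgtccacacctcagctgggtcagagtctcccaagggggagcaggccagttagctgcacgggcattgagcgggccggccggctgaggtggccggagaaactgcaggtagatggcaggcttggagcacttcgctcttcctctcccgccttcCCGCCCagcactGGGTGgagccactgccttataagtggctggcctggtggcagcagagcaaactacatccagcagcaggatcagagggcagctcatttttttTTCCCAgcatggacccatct

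The Sema7a promoter held 1 KLF and 2 SP matches, and the Slit3 promoter 2 KLF and 6 SP matches. Plxnc1 held 1 RBPJ, 1 SOX, 1 KLF and 4 SP matches, and Sema3g 1 each of RBPJ, KLF and SP. Matches to different motifs overlapped by 2 bases in Plxnc1 and by 1 base in Sema7a, and 2 SP matches overlapped by 2 bases in Slit3. Promoters could be matched for 55 of the 64 genes, with 71 starts. Among these 71, 78.9% held the KLF motif and 70.4% the SP motif, and among all 32851 promoters of the same length the shares were 57.5% and 35.7%. The RBPJ, SOX and ETS motifs stood in 21.1%, 9.86% and 9.86% of the guidance promoters, beside 25.6%, 12.6% and 14.9% of all promoters. GATA, E-box and AP-1 motifs stood in 4.23%, 7.04% and 4.23%, beside 11.2%, 7.15% and 7.81% of all promoters. These shares describe letters in the window and do not show binding.

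The dye sort asks which guidance genes distinguish EC-SP from EC-MP cells. The ligand Sema3g was 8.88-fold higher in EC-SP, and the ligands Sema7a and Slit3 were also higher, with 1 of 3 EC-MP arrays well above background for each. The receptor Plxnc1 was 29.9-fold lower, and the ligands Sema3d and Sema3a were lower too, with 2 and 1 of the 3 EC-SP arrays well above background. The arterial ligand Efnb2 was higher and the venous receptor Ephb4 lower. Of 50 tested guidance genes, 13 (26%) were higher and 6 (12%) lower, against 9.15% and 7.39% of all 23969 features. The counts of single families below stand beside the same shares of all features. With only genes well above background on every array, 8 of 39 were higher and 4 lower, beside 1969 and 1529 of 21294 features. The median log2 difference over the 50 genes was 0.05, and -0.00 over all features. In each of the 19 called genes, the EC-SP and EC-MP arrays did not overlap, which selection by a small p-value makes likely, so this adds no support to the calls.

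**Figure D1:**
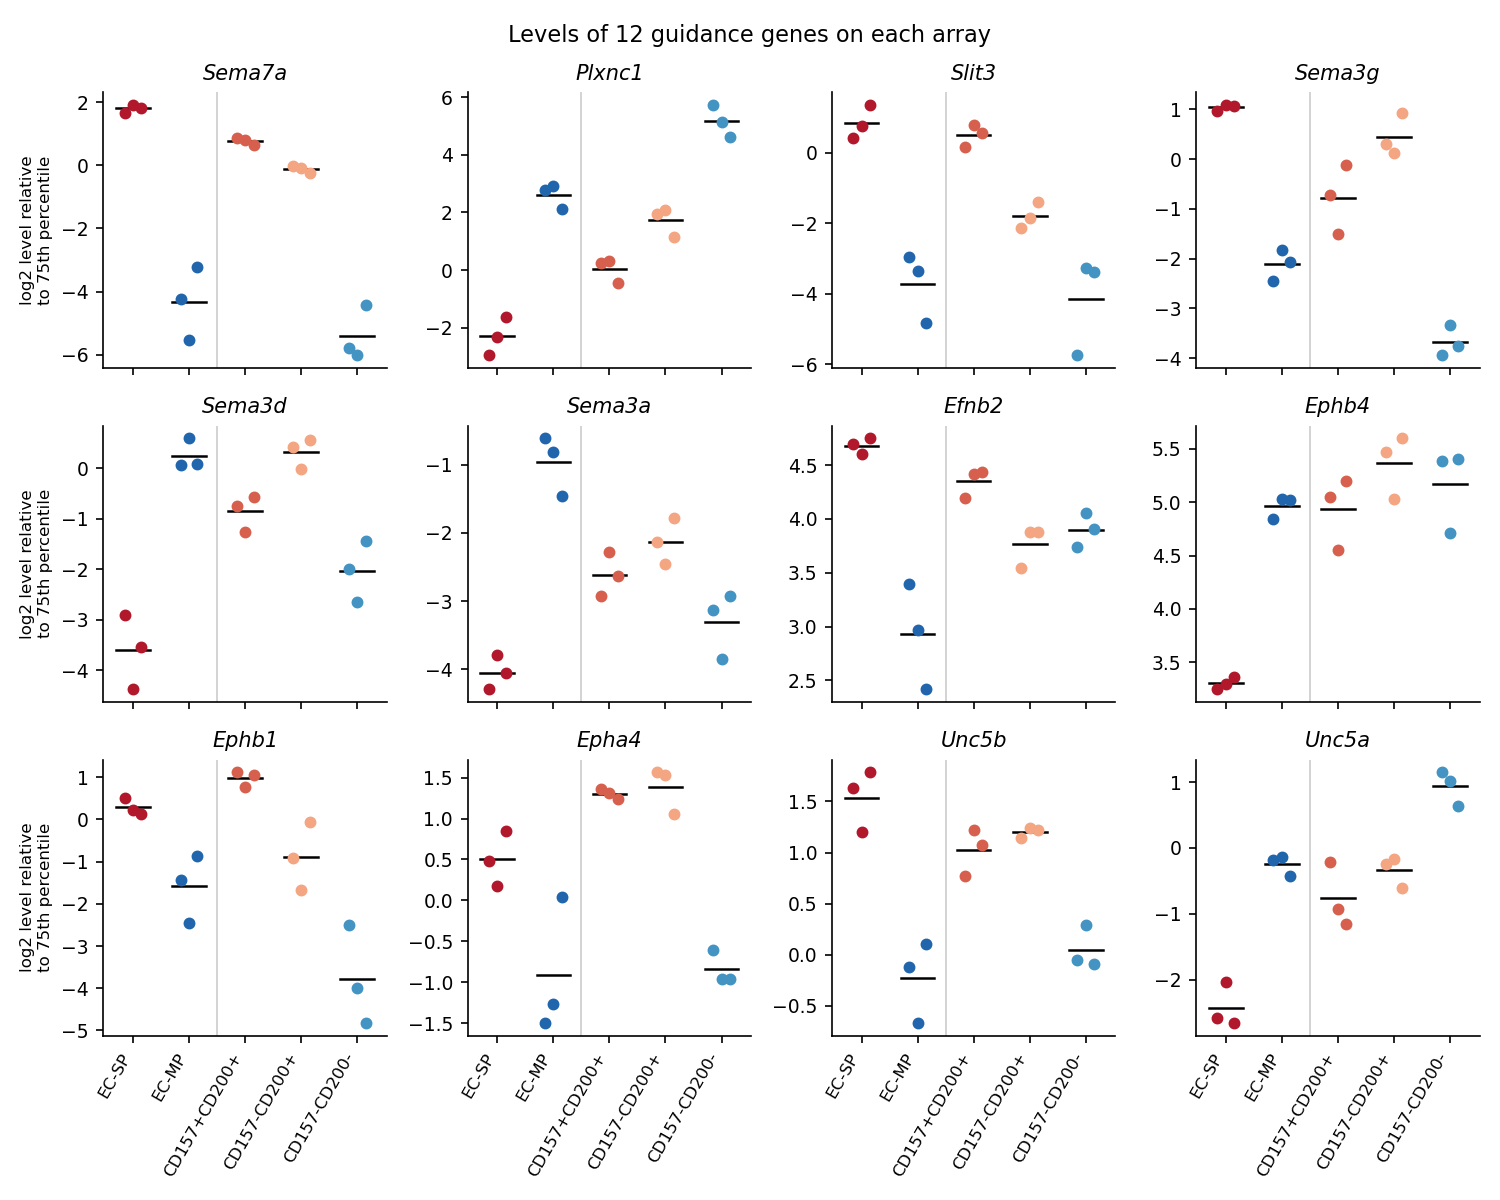
Log2 level of 12 guidance genes (y axis, relative to the 75th percentile of each array, a separate scale in each panel) on every array of the 5 populations (x axis). Points are arrays, bars are means of 3 arrays, and the grey line divides the dye sort from the antibody sort. All EC-SP points of Sema7a lie above all its EC-MP points, and all EC-SP points of Plxnc1 lie below all its EC-MP points.

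Among the semaphorins, 5 of 16 tested genes were higher and 2 lower in EC-SP. Sema7a, a semaphorin anchored to the outer membrane by a lipid, had log2 levels of 1.66, 1.92 and 1.82 in EC-SP, against -4.24, -5.53 and -3.21 in EC-MP. It was bright on every EC-SP array and well above background on only 1 of the 3 EC-MP arrays. The log2 difference was 6.13 ± 0.49 (SE, limma adjusted p = 0.000111). Sema3g, a secreted semaphorin described in arterial endothelium, had 0.96, 1.09 and 1.06 in EC-SP and -2.45, -1.83 and -2.06 in EC-MP. Its EC-SP arrays lay within 0.2 of each other and all above EC-MP, with a difference of 3.15 ± 0.23 (adjusted p = 7.82e-05). Sema3c, a secreted ligand of neuropilins needed for the cardiac outflow tract, had -2.33, -1.90 and -2.37 in EC-SP, against -4.46, -5.40 and -3.86 in EC-MP, where 1 array was well above background. The difference was 2.37 ± 0.37 (adjusted p = 0.00305). The membrane-bound Sema6b, a ligand of A-type plexins, was 2.45-fold higher (adjusted p = 0.00553), and Sema4a, best known from immune cells, was higher by 1.36 ± 0.27 (adjusted p = 0.0102), with 1 EC-MP array well above background.

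The lower semaphorins were both secreted class 3 ligands. Sema3d, which guides vein patterning in the mouse embryo, had -2.90, -4.38 and -3.54 in EC-SP, against 0.06, 0.60 and 0.08 in EC-MP. Only 2 of the 3 EC-SP arrays were well above background, and all lay far below EC-MP, with a difference of -3.85 ± 0.37 (adjusted p = 0.000262). Sema3a, the founding repulsive ligand of neuropilin-1, had -4.29, -3.79 and -4.06 in EC-SP, where 1 array was well above background, and -0.61, -0.81 and -1.46 in EC-MP. Its difference was -3.08 ± 0.28 (adjusted p = 0.0002). A second Sema3a probe gave a smaller difference of -1.58 with the same call (adjusted p = 0.00378). Sema5a, a membrane ligand with thrombospondin repeats, had a difference of 1.95 ± 0.64 and did not pass the test (adjusted p = 0.0698).

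Plexins split, with 1 of 8 tested genes higher and 1 lower. Plxnc1, the receptor of Sema7a, had -2.96, -2.31 and -1.61 in EC-SP and 2.76, 2.92 and 2.14 in EC-MP. Each EC-SP array was below each EC-MP array by over 3 log2 units, and the difference was -4.90 ± 0.36 (adjusted p = 7.82e-05), opposite in direction to that of its ligand. A second Plxnc1 probe gave -5.01. Plxnb1, the receptor of Sema4D, had an EC-SP level at least 2.37-fold that of EC-MP, since no EC-MP array was well above background (adjusted p = 0.00531 for the fitted difference). Plxna4, a receptor of class 6 and class 3 semaphorins, differed by -0.97 ± 0.42, which did not pass the test (adjusted p = 0.157) but was called with the replicate number as a block (adjusted p = 0.0198) and without EC-MP replicate 1.

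Ephrins and Eph receptors moved in both directions. Efnb2, the arterial ligand, had 4.69, 4.60 and 4.75 in EC-SP and 3.40, 2.97 and 2.42 in EC-MP, and the EC-SP arrays were the higher and tighter set. The difference was 1.75 ± 0.28, a 3.37-fold increase (adjusted p = 0.00303). Ephb4, its venous receptor, had 3.25, 3.29 and 3.36 in EC-SP and 4.84, 5.03 and 5.02 in EC-MP, a 3.17-fold decrease (-1.66 ± 0.20, adjusted p = 0.000867). A second probe of each gene gave the same direction, at 1.60 for Efnb2 and -1.19 for Ephb4. The other B-type ligand, Efnb1, was 2.84-fold lower in EC-SP (adjusted p = 0.00786). Ephb1, a receptor of B-type ephrins, had 0.49, 0.23 and 0.13 in EC-SP and -1.43, -2.46 and -0.87 in EC-MP, with a difference of 1.87 ± 0.38 (adjusted p = 0.01).

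Of the A-type genes, the ligand Efna1 and its receptor Epha2 were both higher in EC-SP, with differences of 1.03 ± 0.24 (adjusted p = 0.0195) and 1.48 ± 0.32 (adjusted p = 0.014). The Efna1 call was lost without EC-SP replicate 1 or 3 or EC-MP replicate 2 or 3, with adjusted p-values of 0.0526 to 0.0721, and the Epha2 call without EC-MP replicate 1 (0.0514). Epha4, a receptor that binds both ephrin classes, had 0.48, 0.17 and 0.85 in EC-SP, against -1.50, -1.27 and 0.05 in EC-MP. Replicate 3 was the highest array of either population, the groups were close but did not overlap, and the difference was 1.41 ± 0.40 (adjusted p = 0.0424). That call did not hold in 5 of the 6 fits that left out 1 array, the exception being the fit without EC-MP replicate 3, nor with quantile normalization, the authors' table or no filter (adjusted p up to 0.138).

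Of the receptors of netrins, Unc5b, an endothelial receptor, had 1.63, 1.2 and 1.79 in EC-SP and -0.12, -0.67 and 0.11 in EC-MP (1.77 ± 0.28, adjusted p = 0.00302). Unc5a, known mostly from neurons, went the other way, with -2.58, -2.04 and -2.65 in EC-SP and -0.18, -0.13 and -0.43 in EC-MP (-2.18 ± 0.24, adjusted p = 0.000588). Within this family the endothelial receptor was thus higher and its relative lower. Slit3, a secreted Robo ligand, had 0.43, 0.77 and 1.37 in EC-SP, against -2.94, -3.35 and -4.83 in EC-MP, where 1 of 3 arrays was well above background. The difference was 4.56 ± 0.47 (adjusted p = 0.000367), and the lowest EC-SP array was above the highest EC-MP array by over 3 log2 units. None of the 3 tested Robo receptors was called, and Robo4, the endothelial Robo, differed by -0.01 ± 0.24 (adjusted p = 0.984).

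With normexp background correction, which damps dim signals, all 19 differences kept their direction and 8 shrank over 1.5-fold. Sema7a became 3.43, Slit3 2.55, Sema3d -1.76, Sema3a -1.34, Unc5a -1.21 and Sema3c 0.62, and Plxnb1 and Sema4a lost their calls at 0.45 (adjusted p = 0.0599) and 0.39 (adjusted p = 0.102).

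Markers of other cells moved with the same contrast, and their part in these results was not tested. Their counts stand beside 9.15% of all features higher and 7.39% lower. All 13 genes of a list of sinusoidal endothelium, the specialised lining of liver capillaries, were lower in EC-SP, with a median log2 difference of -4.09. Their summed linear level, in units of the 75th percentile, was 36.4 to 44.1 in EC-SP and 373 to 649 in EC-MP. Of an arterial list that itself holds Efnb2, Sema3g and Unc5b, 11 of 13 tested genes were higher and 2 lower, and of a venous list that holds Ephb4, 2 of 9 were higher and 5 lower. Of 4 lymphatic markers 3 were lower (median -2.22), with sums of 2.44 to 2.89 in EC-SP and 7.18 to 11.1 in EC-MP, and Pdpn and Reln were above background on no EC-SP array. Flt4, also a partner gene, averaged log2 levels of 0.996 in EC-SP and 3.00 in EC-MP and makes up most of these sums. Cholangiocyte markers were higher in 8 of 11 tested genes, with sums of 14.0 to 19.5 in EC-SP and 5.55 to 6.03 in EC-MP, while Cftr was above background in neither. Stellate cell and fibroblast markers summed to 7.80 to 13.2 in EC-SP and 1.94 to 3.28 in EC-MP, with 1 of 6 tested genes higher, 1 lower, and Pdgfra and Lum above background in neither. For smooth muscle the sums were 4.49 to 6.69 in EC-SP and 4.97 to 5.34 in EC-MP, with 0 of 4 genes called.

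Among 33 partner genes on the cell surface, which comprise co-receptors and other ligands and receptors of these pathways, 7 of 29 tested were higher and 8 lower in EC-SP. Over all features the shares were 9.15% higher and 7.39% lower. The netrin-family gene Ntng2 averaged -2.46 ± 0.27 in EC-SP and 0.10 ± 0.17 in EC-MP (SD, n = 3 each), and Flrt1, of the FLRT family of Unc5 ligands, -3.0 ± 0.11 in EC-SP and 0.15 ± 0.82 in EC-MP. Flt4, the receptor of the growth factor Vegfc, was 4.01-fold lower while Vegfc was 6.81-fold higher. Met, a receptor tyrosine kinase that associates with plexin B1, was 6.56-fold higher, and the heparan sulfate carrier Gpc1 was lower by a log2 difference of -3.54 ± 0.37, with 2 of 3 EC-SP arrays well above background. Beside the same shares of all features, 9 of 47 tested among 51 genes of cytoplasmic signalling were higher and 8 lower. They included Rnd1, a GTPase that binds plexins (3.25 ± 0.54), the kinase Abl2 (2.19 ± 0.28), the adaptors Grb7 (2.31 ± 0.39) and Nck2 (2.21 ± 0.38), the GTPase Rhod (-2.23 ± 0.25) and Dpysl3, a relative of the semaphorin mediator CRMP2 (-1.62 ± 0.29).

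The antibody sort asks how the same genes differ among cells with and without CD157 and CD200. CD157+CD200+ cells had more Sema7a, Slit3, Ephb1 and Sema3g RNA than CD157-CD200- cells and less Plxnc1, Unc5a and Sema6a. Of 51 tested guidance genes, 12 (23.5%) were higher and 7 (13.7%) lower, against 8.12% and 7.11% of all 23699 features. Family counts of this comparison stand beside the same shares of all features. With only genes well above background on every array of the subsets, 4 of 36 were higher and 7 lower, beside 1375 and 1461 of 20442 features. The median difference was 0.14 over the 51 genes and 0.01 over all features. The groups did not overlap in any of the 19 called genes, which again follows largely from how these genes were selected.

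**Figure D2:**
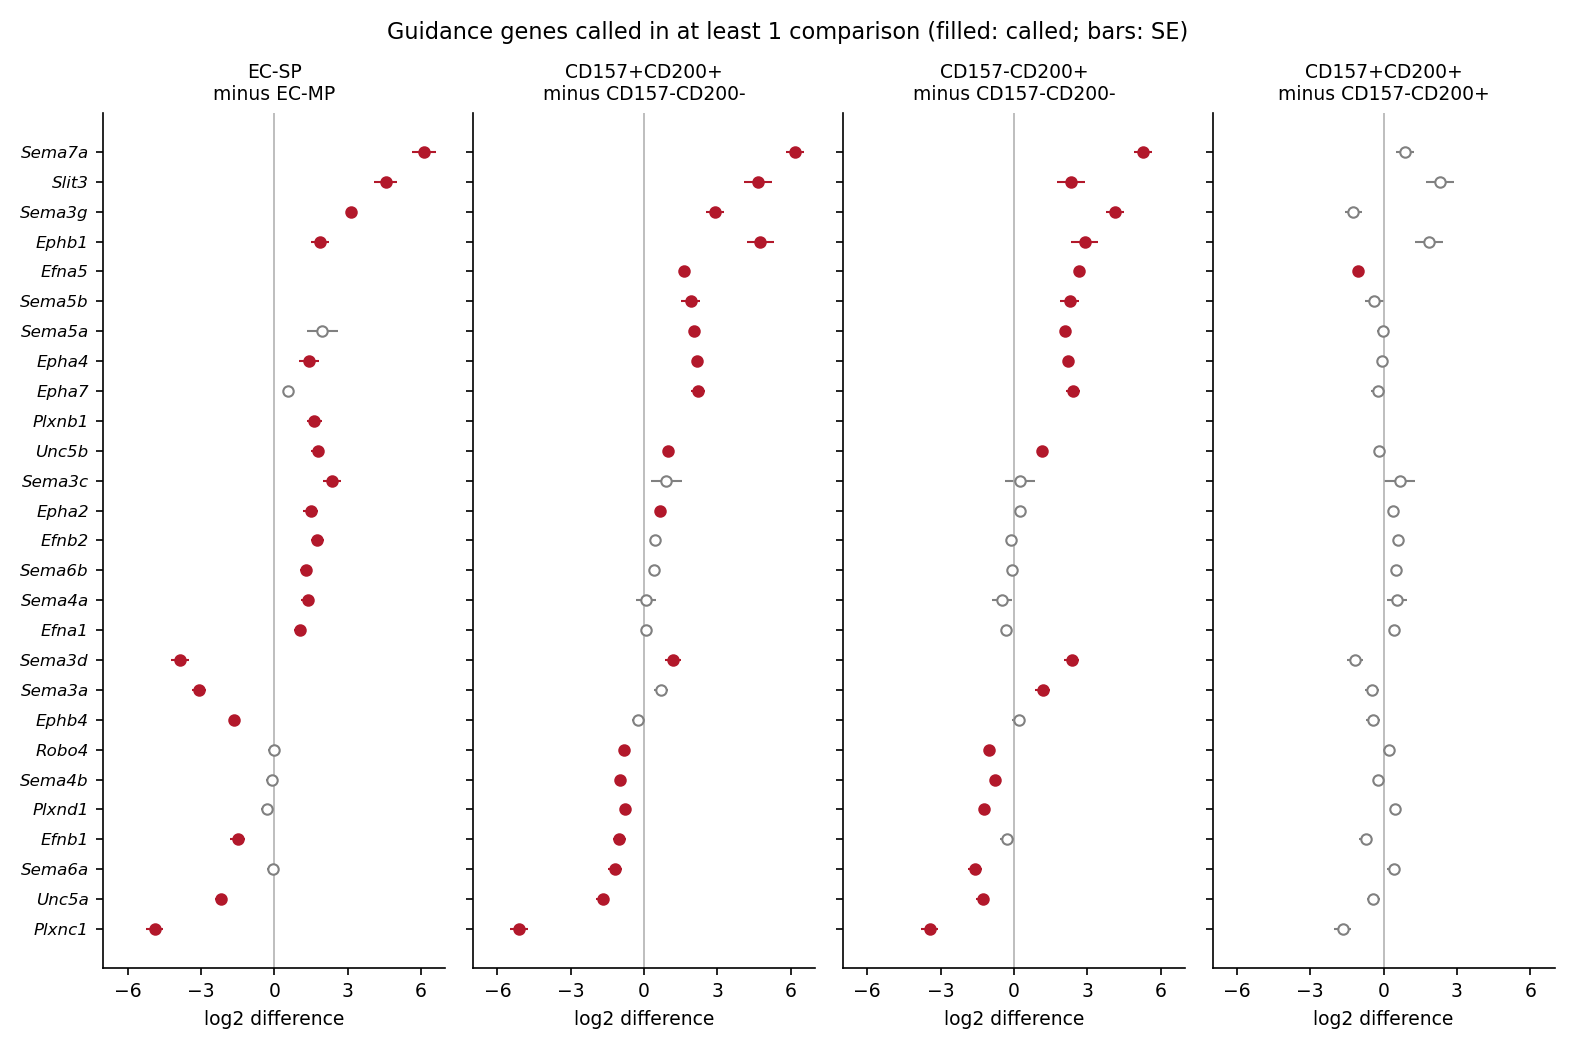
Log2 difference (x axis) of the 27 guidance genes called in at least 1 of 4 comparisons (y axis), one panel per comparison. Filled points passed an adjusted p of 0.05, open points did not, bars are SEs from limma with 3 arrays per population, and a missing point was not tested. Sema7a lies near 6 in the first 2 panels, and in the last panel only Efna5 is filled.

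Semaphorins had 5 higher and 2 lower of 18 tested. Sema7a had 0.85, 0.78 and 0.65 in CD157+CD200+ and -5.77, -6.02 and -4.43 in CD157-CD200- cells. Since no CD157-CD200- array was well above background, it was at least 25.3-fold higher (fitted difference 6.17 ± 0.36, limma adjusted p = 2.93e-06). Sema3g had -0.72, -1.51 and -0.13 in CD157+CD200+, against -3.95, -3.34 and -3.75 in CD157-CD200- cells, where 1 array was well above background (2.89 ± 0.36, adjusted p = 0.000392). Both genes were thus low on all CD157-CD200- arrays. Sema5a was 4.14-fold higher, with 2 CD157-CD200- arrays well above background (adjusted p = 0.000204), and its relative Sema5b at least 2.21-fold (adjusted p = 0.00868), a call lost with normexp correction (0.39, adjusted p = 0.116). Sema3d had -0.73, -1.25 and -0.56 in CD157+CD200+ and -1.99, -2.65 and -1.44 in CD157-CD200- cells. Its difference of 1.18 ± 0.32 passed narrowly (adjusted p = 0.0345), opposite in direction to EC-SP against EC-MP. The call was lost in 5 of 9 fits without 1 array, those without CD157+CD200+ replicate 1 or 3, CD157-CD200+ replicate 1 or CD157-CD200- replicate 1 or 2 (adjusted p of 0.0569 to 0.113), and with normexp correction, quantile normalization or no filter (0.0637 to 0.0799). The membrane ligands Sema6a and Sema4b were lower, with differences of -1.19 ± 0.27 (adjusted p = 0.0156) and -1.0 ± 0.19 (adjusted p = 0.00583). Sema6a lost its call without CD157-CD200- replicate 1 or 2 or CD157+CD200+ replicate 3 (adjusted p of 0.0540 to 0.0638).

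None of the 7 tested plexins was higher in CD157+CD200+ cells, and 2 were lower. Plxnc1 had 0.25, 0.33 and -0.45 in CD157+CD200+ and 5.75, 5.16 and 4.61 in CD157-CD200- cells, a 35.0-fold decrease (-5.13 ± 0.36, adjusted p = 9.66e-06). For this gene every CD157-CD200- array lay above every array of the 2 other populations of the antibody sort. Plxnd1, the endothelial receptor of Sema3e, averaged 2.99 ± 0.15 in CD157+CD200+ and 3.77 ± 0.15 in CD157-CD200- cells (adjusted p = 0.0112).

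Eph receptors had 4 higher and none lower of 12 tested. Ephb1 had 1.12, 0.76 and 1.04 in CD157+CD200+ and -2.51, -4.0 and -4.82 in CD157-CD200- cells, where 1 array was well above background (4.75 ± 0.56, adjusted p = 0.000281). Epha4 had 1.36, 1.31 and 1.24 in CD157+CD200+ and -0.60, -0.96 and -0.96 in CD157-CD200- cells (2.15 ± 0.20, adjusted p = 5.67e-05). The CD157+CD200+ arrays of both receptors lay close together and above all CD157-CD200- arrays. Epha7, a receptor of A-type ephrins, had -1.29, -2.0 and -1.06 in CD157+CD200+ cells, against -3.99, -3.73 and -3.23 in CD157-CD200- cells (2.20 ± 0.28, adjusted p = 0.000456). Epha2 was higher by 0.64 ± 0.17 (adjusted p = 0.0313), a call lost in 6 of 9 fits without 1 array, the exceptions being those without CD157+CD200+ replicate 3 or CD157-CD200+ replicate 2 or 3 (adjusted p up to 0.117, and 0.126 with all 15 arrays in 1 fit).

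Of the ephrins, Efnb1 was lower, with a difference of -1.02 ± 0.28 (adjusted p = 0.0343) and lost its call in 5 of 9 fits without 1 array, those without replicate 1 or 2 of CD157+CD200+, replicate 1 or 3 of CD157-CD200- or replicate 2 of CD157-CD200+ (adjusted p of 0.0528 to 0.122). Efna5, an A-type ligand, was called higher by 1.62 ± 0.19 (adjusted p = 0.000274), but no array of either population was well above background, so no fold is given. Efnb2 had 4.19, 4.42 and 4.44 in CD157+CD200+ and 3.74, 4.05 and 3.90 in CD157-CD200- cells. The groups did not overlap, and the difference of 0.45 ± 0.18 passed the test only with the replicate block (adjusted p = 0.0137, against 0.139 without it). Ephb4 had 5.05, 4.55 and 5.20 in CD157+CD200+ cells, against 5.39, 4.71 and 5.40 in CD157-CD200- cells, with overlapping arrays and a difference of -0.24 ± 0.27 (adjusted p = 0.683). In this sort the arterial and venous pair was therefore not called.

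Slit3 had 0.16, 0.78 and 0.58 in CD157+CD200+ cells, and -5.74, -3.28 and -3.39 in CD157-CD200- cells with 2 arrays well above background (4.64 ± 0.57, adjusted p = 0.000392). Unc5b had 0.78, 1.22 and 1.08 in CD157+CD200+, against -0.05, 0.29 and -0.09 in CD157-CD200- cells (0.97 ± 0.19, adjusted p = 0.00585). Unc5a had -0.21, -0.92 and -1.15 in CD157+CD200+, against 1.15, 1.02 and 0.64 in CD157-CD200- cells (-1.70 ± 0.27, adjusted p = 0.00193). As in the dye sort, Slit3 and Unc5b were higher and Unc5a lower. Robo4, which binds Unc5b, was lower, with a difference of -0.81 ± 0.21 (adjusted p = 0.0281), and this call was lost without any 1 of CD157+CD200+ replicates 1 to 3 or CD157-CD200- replicates 1 and 2 (adjusted p of 0.0503 to 0.104). With the replicate block, Plxna2, Plxna4, Sema6b and Slit2 were also called, at differences of -0.40, 0.40, 0.41 and 0.76 (adjusted p of 0.0103 to 0.0446). Normexp correction kept the direction of all 19 differences and shrank 9 over 1.5-fold, among them Sema7a to 2.37, Ephb1 to 2.26, Slit3 to 1.94, Sema3g to 1.19, Epha7 to 0.74, Sema5a to 0.70 and Sema3d to 0.56. Efna5 lost its call there (0.09, adjusted p = 0.755).

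CD157-CD200+ cells were likewise set against CD157-CD200- cells, with the same CD157-CD200- arrays as above. Of 51 tested genes, 12 (23.5%) were higher and 6 (11.8%) lower, against 6.31% and 5.52% of all features. The median difference was 0.19 over the 51 genes and 0.02 over all features. With only genes well above background on every array of the subsets, 5 of 36 were higher and 7 lower, beside 1040 and 1150 of 20442 features. Sema7a had -0.04, -0.08 and -0.24 in CD157-CD200+ cells and was at least 13.7-fold higher (fitted difference 5.29 ± 0.36, adjusted p = 1.03e-05). Sema3g had 0.30, 0.12 and 0.93, a difference of 4.13 ± 0.36 from CD157-CD200- cells (adjusted p = 5.18e-05). Both semaphorins were above every CD157-CD200- array on each of the 3 CD157-CD200+ arrays. Sema3d, with 0.43, -0.00 and 0.57 in CD157-CD200+ cells, differed by 2.36 ± 0.32 (adjusted p = 0.00091). Sema3a had -2.14, -2.46 and -1.78 in CD157-CD200+ cells and -3.13, -3.85 and -2.92 in CD157-CD200- cells. Its difference of 1.17 ± 0.29 (adjusted p = 0.0269) was not called in the second probe (0.49, adjusted p = 0.627), and over all alternatives its adjusted p ran over 0.0159 to 0.141, with calls lost without replicate 1 or 3 of CD157-CD200+ or replicate 1 or 2 of CD157-CD200-.

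The receptor Plxnc1 had 1.95, 2.09 and 1.13 in CD157-CD200+ cells, a difference of -3.45 ± 0.36 from CD157-CD200- cells (adjusted p = 0.000171). Ephb1 had -0.92, -1.67 and -0.07 (2.89 ± 0.56, adjusted p = 0.0073) and Epha4 1.57, 1.54 and 1.06 (2.23 ± 0.20, adjusted p = 6.08e-05). These receptors differed from CD157-CD200- cells in the directions given above for CD157+CD200+ cells. Epha7 had -1.32, -1.17 and -1.19 (2.42 ± 0.28, adjusted p = 0.000314), and Unc5b 1.15, 1.24 and 1.22 (1.15 ± 0.19, adjusted p = 0.00263). Unc5a had -0.25, -0.17 and -0.60 (-1.28 ± 0.27, adjusted p = 0.012), a call lost without CD157-CD200- replicate 1 (0.0540) or CD157-CD200+ replicate 3 (0.0512). Plxnd1 was 2.34-fold lower (adjusted p = 0.000955), Sema6a 3.03-fold lower (adjusted p = 0.00384), and Robo4 2.01-fold lower (adjusted p = 0.0113), the last lost without CD157-CD200- replicate 1 or CD157-CD200+ replicate 3 (adjusted p of 0.0506 and 0.0516).

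Slit3 had -2.14, -1.84 and -1.39 in CD157-CD200+ cells, with all 3 arrays above CD157-CD200- (2.35 ± 0.57, adjusted p = 0.0253). That call was lost without any 1 CD157-CD200+ array, and without CD157-CD200- replicate 1 the difference was 1.54. Efna5 had -3.01, -2.99 and -3.40 in CD157-CD200+ cells and -5.59, -5.80 and -6.01 in CD157-CD200- cells, at least 1.70-fold higher (fitted difference 2.67 ± 0.19, adjusted p = 1.45e-05). Sema5a was 4.27-fold (adjusted p = 0.000225) and Sema5b at least 2.89-fold higher (adjusted p = 0.00372). Sema4b was lower, with a difference of -0.78 ± 0.19 (adjusted p = 0.0262) and lost its call without replicate 1 or 3 of CD157-CD200- or replicate 2 or 3 of CD157-CD200+ (adjusted p of 0.0619 to 0.107). Normexp correction kept all 18 directions, shrank 10 of the differences over 1.5-fold (Sema7a to 1.71, Sema3g to 1.98, Sema3d to 1.36, Ephb1 to 0.95, Epha7 to 0.81 and Sema5a to 0.64) and ended the calls of Efna5 (0.26), Slit3 (0.49), Sema5b (0.47) and Sema3a (0.39), at adjusted p-values of 0.0537 to 0.271. With the replicate block, Efna1, Plxna2, Plxna4, Sema3b, Sema3f and Slit2 were also called, at -0.34, -0.83, 0.68, 0.43, 0.52 and 0.86.

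Between CD157+CD200+ and CD157-CD200+ cells, which both carry CD200, few features were called in the fit without the replicate block. The only guidance gene of 51 called in that fit was Efna5. It had -4.29, -4.15 and -4.11 in CD157+CD200+ cells, none of them well above background, against -3.01, -2.99 and -3.40 in CD157-CD200+ cells. On the processed signal its CD157+CD200+ level was lower by a factor of at least 1.81 (fitted difference -1.05 ± 0.19, adjusted p = 0.032). With normexp correction the difference was only -0.16 and was not called (adjusted p = 0.988). The Efna5 call was also lost without any 1 of CD157+CD200+ replicates 1 to 3 or CD157-CD200+ replicates 1 and 2. Its adjusted p ran over 0.0181 to 0.988 across the alternatives. Over all features 0.802% were higher and 0.245% lower, and 13 of the 51 genes (25.5%) had an unadjusted p under 0.05, against 8.56% of all features. With the replicate block 5 of 51 guidance genes were called, beside 3.05% of all features. The added genes were Plxnc1 (difference -1.68, adjusted p = 0.00589 with the block and 0.0747 without), Sema3d (-1.18, 0.0114 and 0.184), Efnb2 (0.58, 0.0303 and 0.279) and Slit3 (2.30, 0.0464 and 0.133). Sema7a differed by 0.88 ± 0.36 and Sema3g by -1.23 ± 0.36, and neither was called with or without the block. With normexp correction the called genes were Sema7a, Slit3, Ephb1 and Plxnc1.

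Plxnc1 thus had its lowest antibody-sort levels in CD157+CD200+ cells, intermediate levels in CD157-CD200+ cells and its highest in CD157-CD200- cells, and Slit3 the opposite order. In both genes the step between the 2 CD200+ populations was not called in the fit used here but was called with the block and with normexp correction, and for Plxnc1 also with the mean of its probes and for Slit3 without CD157-CD200- replicate 1. For Slit3 the CD157-CD200+ arrays were all below the CD157+CD200+ arrays. Sema3g and Sema3d were highest in CD157-CD200+ cells by their means.

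Cell type markers also moved with the antibody sort, and their part in these results was not tested. Their counts against CD157-CD200- cells stand beside 8.12% of all features higher and 7.11% lower in CD157+CD200+ cells, and 6.31% and 5.52% in CD157-CD200+ cells. All 13 sinusoidal markers were lower in CD157+CD200+ than in CD157-CD200- cells, and 12 in CD157-CD200+ cells. Their sums were 119 to 142 in CD157+CD200+, 206 to 236 in CD157-CD200+ and 1092 to 1423 in CD157-CD200- cells. Arterial markers were higher in 8 and lower in 2 of 13 in CD157+CD200+ cells, with sums of 165 to 178 in CD157+CD200+, 176 to 188 in CD157-CD200+ and 58.9 to 74.6 in CD157-CD200- cells. Venous markers summed to 357 to 396 in CD157+CD200+, 416 to 428 in CD157-CD200+ and 60.7 to 80.6 in CD157-CD200- cells. Of the 9 genes, 4 were higher and none lower in CD157+CD200+ cells (median -0.24), and 4 were higher and 2 lower in CD157-CD200+ cells (median 0.20). Lymphatic markers summed to 2.28 to 2.64 in CD157+CD200+ and 2.55 to 2.89 in CD157-CD200+ cells, against 18.1 to 27.7 in CD157-CD200- cells, with 1 of 2 tested genes lower in each and Reln above background in none. The lower gene was Flt4, also a partner gene. It averaged log2 levels of 0.98 in CD157+CD200+, 1.29 in CD157-CD200+ and 4.48 in CD157-CD200- cells and makes up most of these sums. Hepatocyte markers were lower in CD157+CD200+ cells in 9 of 10 genes, at 13.8 to 18.6 in CD157+CD200+ and 13.9 to 15.5 in CD157-CD200+ cells, against 44.7 to 52.5 in CD157-CD200- cells. Kupffer cell markers were lower there in 5 of 8 tested genes, at 26.1 to 28.1 in CD157+CD200+ and 24.8 to 33.0 in CD157-CD200+ cells, against 36.1 to 50.7 in CD157-CD200- cells, with Timd4 above background in none. Stellate cell and fibroblast markers, with 2 of 8 tested genes higher and 2 lower, summed to 16.0 to 24.4 in CD157+CD200+ and 14.5 to 26.2 in CD157-CD200+ cells, against 3.81 to 4.32 in CD157-CD200- cells, with Pdgfra above background in none. No cholangiocyte marker was called among the subsets.

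Of the partner genes on the cell surface, 6 of 30 tested were higher and 9 lower in CD157+CD200+ than in CD157-CD200- cells, and 6 were higher and 7 lower in CD157-CD200+ cells. Over all features the shares were 8.12% higher and 7.11% lower in CD157+CD200+ cells, and 6.31% and 5.52% in CD157-CD200+ cells. Sdc1, a syndecan that carries heparan sulfate, averaged 2.88 ± 0.15 in CD157+CD200+, 2.98 ± 0.12 in CD157-CD200+ and -1.78 ± 0.29 in CD157-CD200- cells (SD, n = 3 each). Flrt1 and Flt4 were lower, with differences of -5.26 ± 0.21 and -3.49 ± 0.20 in CD157+CD200+ cells and of -4.83 ± 0.21 and -3.19 ± 0.20 in CD157-CD200+ cells. Vegfc was higher by 2.72 ± 0.17 in CD157+CD200+ cells and by 2.73 ± 0.17 in CD157-CD200+ cells. Of the cytoplasmic partners, 10 of 50 tested were higher and 10 lower in CD157+CD200+ cells, and 7 and 9 in CD157-CD200+ cells, beside the same shares of all features. Mras, a GTPase on which plexins act, averaged 3.67 ± 0.20 in CD157+CD200+, 4.10 ± 0.22 in CD157-CD200+ and -1.81 ± 0.20 in CD157-CD200- cells. Chn2, a protein that inactivates the GTPase Rac, averaged 1.14 ± 0.24 in CD157+CD200+, 1.62 ± 0.38 in CD157-CD200+ and -4.56 ± 0.87 in CD157-CD200- cells. Enah, an actin regulator, exceeded its CD157-CD200- level at least 7.55-fold in CD157+CD200+ and at least 5.12-fold in CD157-CD200+ cells. Between the 2 CD200+ populations, Met (1.22 ± 0.20) and Rnd1 (2.31 ± 0.34) were higher and the glypican Gpc4 (-1.45 ± 0.23) was lower in CD157+CD200+ cells. Met lost its call without CD157+CD200+ replicate 1, 2 or 3, CD157-CD200+ replicate 1 or 2 or the filter (adjusted p up to 0.108), Gpc4 without CD157+CD200+ replicate 1 or 2, any CD157-CD200+ array or the filter (up to 0.0903), and Rnd1 without CD157-CD200+ replicate 1 or CD157+CD200+ replicate 2 or 3 (up to 0.0667).

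Set side by side, the dye sort and the antibody sort gave called differences in both for 11 of the 47 guidance genes tested in both (23.4%), 10 of them (21.3%) in the same direction, against 7.22% and 6.73% of the 22608 features tested in both. These 10 were Sema7a, Slit3, Sema3g, Ephb1, Epha4, Epha2, Unc5b, Plxnc1, Unc5a and Efnb1, and the gene with opposite directions was Sema3d. Not all of these calls were firm. Those of Epha4 and Epha2 in the dye sort and of Epha2, Efnb1 and Sema3d in the antibody sort were lost in some alternatives, as given above. Another 7 genes (14.9%) were called in EC-SP against EC-MP and not in CD157+CD200+ against CD157-CD200- cells, and 6 (12.8%) the other way, against 9.36% and 7.70% of all features. The difference between the sorts was tested for every gene over all 15 arrays. It was called for 6 of 52 guidance genes, 1 (1.92%) positive and 5 (9.62%) negative, beside 2.12% and 2.99% of all 24864 features, and the median was -0.04 over the 52 genes and 0.01 over all features. The balance of directions depended on the setting, with 5 positive and 3 negative calls under normexp correction and 8 positive and 7 negative with the replicate block.

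**Figure D3:**
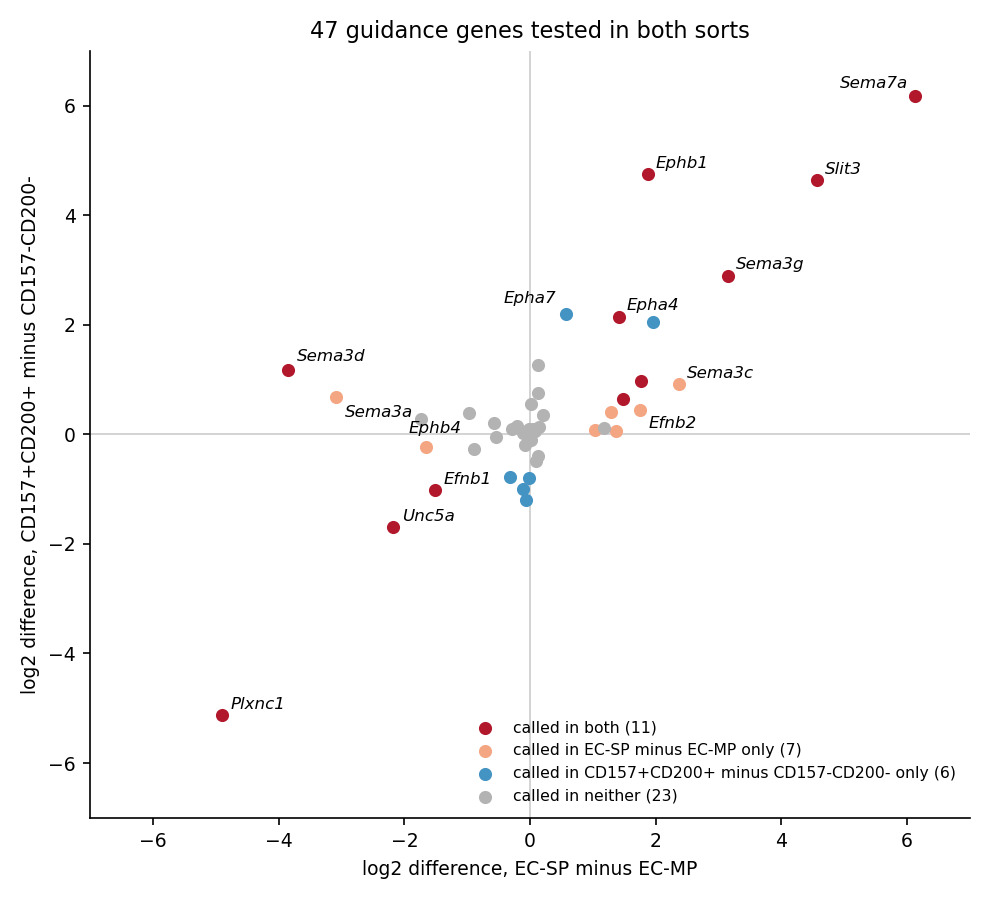
Log2 difference of EC-SP minus EC-MP (x axis) against that of CD157+CD200+ minus CD157-CD200- (y axis) for the 47 guidance genes tested in both sorts, each point a gene coloured by where it was called. Sema7a, Slit3 and Sema3g lie far out at the upper right, Plxnc1 at the lower left, and Sema3d at the upper left.

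Sema3d had the widest gap of the guidance genes, at -3.85 in the dye sort and 1.18 in the antibody sort, a gap of -5.03 ± 0.52 (limma adjusted p = 4.68e-05). Sema3a had -3.08 in the dye sort and 0.69 in the antibody sort, a gap of -3.77 ± 0.42 (adjusted p = 8.56e-05). These 2 secreted ligands kept their gap calls in every alternative that tested them, at -2.33 and -1.57 with normexp correction, but the second Sema3a probe had a gap of -1.31 that was not called (adjusted p = 0.227). Efnb2 had a gap of 1.30 ± 0.32 (adjusted p = 0.0294) and Ephb4 of -1.43 ± 0.34 (adjusted p = 0.0232), so the arterial ligand and the venous receptor were set apart more in the dye sort. Ephb1 (-2.88 ± 0.75, adjusted p = 0.0394) and Epha7 (-1.62 ± 0.37, adjusted p = 0.0205) had the larger difference in the antibody sort. The last 4 calls were lost in some alternatives, Efnb2 in 12, Ephb1 in 14, Ephb4 in 6 and Epha7 in 7, and with the mean of both its probes the Epha7 gap was -0.30. Among fits without 1 array, Efnb2 lost its call without replicate 1 or 3 of EC-SP, 2 or 3 of EC-MP, any of CD157+CD200+, or 2 or 3 of CD157-CD200-. Ephb4 lost it without replicate 1 of EC-SP, 2 or 3 of EC-MP, or 1 or 3 of CD157+CD200+, and Epha7 without replicate 3 of EC-MP, 1 or 3 of CD157+CD200+, or 1 of CD157-CD200-. The Ephb1 call held only without EC-MP replicate 2, CD157-CD200+ replicate 2 or 3, or CD157-CD200- replicate 1. With the replicate block 15 of 52 guidance genes were called, beside 13.0% of all features. The 9 added genes were Sema6a, Plxna4, Efna1, Sema6b, Sema4b, Sema3f, Unc5b, Epha2 and Robo4, with gaps of -1.36 to 1.13.

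The other 27 tested genes were called in none of the 4 comparisons, and in 23 of them every difference was under 1 log2 unit in size. They included the plexins Plxna1, Plxna2, Plxna4, Plxnb2 and Plxnb3, the semaphorins Sema3b, Sema3f, Sema4c, Sema4d, Sema4g, Sema6c and Sema6d, and the ephrins Efna2, Efna3 and Efna4. Also uncalled were the Eph receptors Epha1, Epha5, Epha6, Epha10, Ephb2, Ephb3 and Ephb6, the receptors Robo1 and Robo3, the ligands Slit1 and Slit2, and Plxna4os1. Plxnb2, a receptor of class 4 semaphorins, stayed between -0.11 and 0.05, and the Robo ligand Slit2 between -0.10 and 0.86. Robo1, the broadly expressed Robo, came to -0.89 in EC-SP against EC-MP (adjusted p = 0.0854). Plxna4os1 reached -1.73 with an adjusted p of 0.157 or more, and whether its probe also reads plexin A4 transcripts was not tested.

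The uncalled genes Epha5, Ephb3, Sema4c and Sema6d rested on very bright probes. Their mean log2 levels were 8.58 to 9.77, among the brightest 0.0611% to 0.244% of all probes, and their SD over the 15 arrays was 0.129 to 0.194, beside a median SD of 0.731 for the other 78 guidance probes. What these 4 probes bind was not tested. A second, dimmer Sema6d probe differed by -0.91 in CD157+CD200+ (adjusted p = 0.0186) and by -1.23 in CD157-CD200+ cells (adjusted p = 0.00434), each against CD157-CD200- cells, from a fit of single probes. Probes of a gene also disagreed for Epha7, whose second probe was called higher in EC-SP by 1.81 (adjusted p = 0.045) where the brighter one, at 0.57, was not. The second Plxnc1 probe was called lower in CD157+CD200+ than in CD157-CD200+ cells at -1.27 (adjusted p = 0.0293), where the brighter one was not (adjusted p = 0.0747). In the difference between sorts, the second probe gave 1.01 for Epha7 (adjusted p = 0.676), 1.42 for Efnb2 (adjusted p = 0.0658) and, as a call the brighter probe lacks, -1.33 for Plxna4 (adjusted p = 0.033).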

How the data were processed

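RNA of 15 sorted samples was amplified by a whole-transcriptome kit (Ovation Pico WTA V2), labelled with Cy3 and hybridised to one-colour Agilent arrays, per the labels' protocols. The deposited scanner files hold spot intensity on a linear scale, background-subtracted and spatially corrected by Agilent Feature Extraction, per the file headers. The authors' deposited series table holds the same intensity times 1 constant per array, from 5.46 to 10.1, with no centring, as found by setting its columns against the scanner values, and its column medians were 218 to 335. The sources used here do not give the basis of that constant. The image software's version and the scanner differ between the 6 arrays of the dye sort and the 9 of the antibody sort, per the file headers. Comparisons within a sort were therefore fitted on that sort alone, and levels are not tested across sorts. The difference between sorts came from 1 fit of all 15 arrays, whose estimate of spread is shared by both scanners and software versions. An alternative with all arrays in 1 fit shares it too. The numbered replicates of a sort lay each on 1 slide and in 1 scan.

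Control spots were left out, flagged outliers (110 to 213 spots per array) were set to missing, and each value was log2(processed signal) minus the log2 of the array's 75th percentile. Of 55681 probes, 28059 got a symbol through RefSeq accessions and the arrays' annotation columns, whose design used mouse build mm9. The probe with the highest mean signal stood for a gene, and probes without a symbol were features under their array identifier. Differences were tested with limma 3.58.1 (lmFit, eBayes, two-sided) in R 4.3.3, over 23969 features for EC-SP against EC-MP, 23699 for the subsets and 24864 for the difference between sorts. Error terms of differences are limma SEs, with 3 arrays in each group. A fold given as "at least" sets the bright group's mean against the higher, on each array, of the lowest signal well above background and the dim probe's own signal. The adjusted p beside it belongs to the fitted difference. Such a fold is a minimum on the processed signal only, since normexp correction gave differences below it for Sema7a, Sema5b, Plxnb1 and Efna5. Probe-level values are from the same fit with every probe kept apart. Files were read with Python 3.11.15, pandas 2.3.3 and numpy 2.4.6, and figures drawn with matplotlib 3.10.9. The fit was tested on simulated data.

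With group means removed, arrays of the same replicate number correlated at r of 0.255 to 0.309 in the dye sort (3 pairs) and 0.252 to 0.612 in the antibody sort (9 pairs), and arrays of different numbers at -0.176 to -0.066 (6 pairs) and -0.475 to 0.0277 (18 pairs). Deviations from a group mean cancel within the group, so positive values for the same number push the others negative, and those add no separate support. On the same-number values, the numbers were taken to pair the arrays, and the blocked value is given where it changes a call. The main fits leave the block out, so their counts, SEs and adjusted p-values do not use the pairing. With the block, guidance calls were 20 instead of 19 in EC-SP against EC-MP, beside 5255 instead of 3966 over all features. For CD157+CD200+ against CD157-CD200- cells, guidance calls were 24 instead of 19, beside 6922 instead of 3609. For CD157-CD200+ against CD157-CD200- cells, they were 24 instead of 18, beside 5280 instead of 2805. As each slide and scan carries 1 number, this block is also the slide block. The alternatives were normexp background correction (offset 50, on the median signals, since the files used here hold no mean signal), quantile normalization, the authors' table, no filter, a strict filter, the mean of a gene's probes, the replicate block, all arrays in 1 fit and leaving out each array.

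Members, gene lists and motifs were chosen with earlier results of these data known. The rule for named genes takes Sema3g, Sema7a, Efnb2, Ephb4 and Unc5b, every called member with a log2 difference of at least 1 in size (up to 30 per comparison), members whose probes disagree, and up to 6 such partners of each list and comparison by adjusted p. All other members are named with their call or lack of a test. Protein sequences were not used here.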

Additional observations from a re-analysis of the deposited data

Results flagged for a closer look

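The results below differed between the dye sort and the antibody sort by a test of the difference itself, the log2 difference of EC-SP minus EC-MP less that of CD157+CD200+ minus CD157-CD200- (limma over 15 arrays, Benjamini-Hochberg adjusted). Among the guidance genes the gap was -5.03 ± 0.52 (SE) for Sema3d (adjusted p = 4.68e-05), -3.77 ± 0.42 for Sema3a (8.56e-05), -2.88 ± 0.75 for Ephb1 (0.0394), -1.62 ± 0.37 for Epha7 (0.0205), -1.43 ± 0.34 for Ephb4 (0.0232) and 1.30 ± 0.32 for Efnb2 (0.0294). Sema3d was the only one of these called in opposite directions in the sorts, and its antibody-sort call was lost in some alternatives (adjusted p up to 0.113).

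Among cytoplasmic partner genes, the gap was -6.87 for the GTPase Mras, with a difference of -1.38 in the dye sort and 5.49 in the antibody sort, both called. For Chn2 the gap was -6.32, with -0.62 in the dye sort, which was not called, and 5.70 in the antibody sort. The kinases and adaptors Grb7, Sh2d3c, Abl2 and Fyn had gaps of 2.31, 1.55, 1.51 and 1.36. Of these calls, Sh2d3c was lost in 10 of 22 alternatives (adjusted p up to 0.0862), Fyn in 8 of 22 (up to 0.0913) and Grb7 in 3 of 21 (up to 0.0551). Of the surface partners, Sdc1 had a gap of -3.10, with 1.55 in the dye sort and 4.66 in the antibody sort. Flrt1 (2.11), the neuropilin Nrp2 (1.57), the receptors Flt4 (1.49) and Kdr (1.43) and the syndecan Sdc4 (1.06) had positive gaps. Sdc4 lost its call in 12 of 22 alternatives (adjusted p up to 0.0703) and Nrp2 in 2 (up to 0.0685). Venous markers also differed between the sorts, with 1 of 9 genes at a positive gap and 7 at a negative one (median -3.02), beside 2.12% and 2.99% of all features. The part of these markers in the results was not tested. Scanner and software version also differ between the sorts and cannot be told apart from them.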

How the results depend on the processing

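Of the called guidance genes, 14 of 19 kept their call in every alternative that tested them for EC-SP against EC-MP, 12 of 19 for CD157+CD200+ against CD157-CD200-, 11 of 18 for CD157-CD200+ against CD157-CD200-, 0 of 1 for CD157+CD200+ against CD157-CD200+ and 2 of 6 for the difference between sorts. Leaving out 1 array gave 17 to 19, 14 to 19, 14 to 19, 0 to 2 and 2 to 7 calls in the same order of comparisons. Requiring every array to be well above background left fewer genes to test. EC-SP against EC-MP then had 12 calls of 39 (8 higher and 4 lower), beside 3498 of 21294 features. CD157+CD200+ against CD157-CD200- had 11 of 36 (4 higher and 7 lower), beside 2836 of 20442 features. CD157-CD200+ against CD157-CD200- had 12 of 36, beside 2190 of 20442 features. These were 5 higher and 7 lower, beside 12 and 6 in the report's fit. CD157+CD200+ against CD157-CD200+ had 0 of 36, beside 157 of 20442 features. The difference between sorts had 2 of 33, beside 1068 of 19534 features. In CD157+CD200+ against CD157-CD200+, limma called 4 genes with normexp correction, 2 with the mean of a gene's probes, 5 with the replicate block, and 0 with quantile normalization, no filter or all arrays in 1 fit, beside 1 called and 13 at an unadjusted p under 0.05 in the report's fit. The difference between sorts had 3 calls with quantile normalization, all negative, 8 with normexp correction (5 positive and 3 negative) and 15 with the replicate block (8 positive and 7 negative), beside 1 positive and 5 negative in the report's fit. The cause of these changes in count was not tested. The block ended no call and changed no call beyond those given above. Over all features, calls went to 2284 of 3966 without the filter in EC-SP against EC-MP. The block gave 6922 instead of 3609 calls in CD157+CD200+ against CD157-CD200-, 5280 instead of 2805 in CD157-CD200+ against CD157-CD200-, 724 instead of 248 in CD157+CD200+ against CD157-CD200+ and 3237 instead of 1270 for the difference between sorts. In CD157+CD200+ against CD157-CD200+ the count over all features was 374 with normexp correction, 157 with the strict filter and 101 to 257 without 1 array. With the authors' table the median of all features moved to -0.17 in EC-SP against EC-MP, and 39.8% instead of 55.3% of all called features were higher, while 12 guidance genes were higher and 6 lower. For the difference between sorts the share was 29.2% with that table and 54.8% with normexp correction, instead of 41.4%. Across these alternatives, directions reversed only in values that were not called: Ephb4 in CD157-CD200+ against CD157-CD200- (0.20, and -0.028 to 0.37 without 1 array), and in the difference between sorts Sema3g (0.26, and -0.11 to 0.58) and Sema7a (-0.04, and -0.64 to 0.52 without 1 array, 1.06 with normexp correction and 0.13 with quantile normalization). In the fit of single probes, the second Epha7 probe had a gap between sorts of 1.01, opposite in sign to the called gap of -1.62. Dim signals limit the fold changes of Sema7a, Slit3, Sema3c, Sema3a, Sema3d, Sema3g, Sema4a, Sema5a, Sema5b, Plxnb1, Ephb1, Epha7 and Efna5, whose low group in at least 1 comparison had fewer than 3 arrays well above background.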
